A study of Mus musculus with 10 samples.

Results

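Imprinted genes are expressed mainly from the copy inherited from one parent. The genes described here are those of a list of 10 imprinted genes known from neural stem cells that have a row, by gene symbol, in a matrix of 15899 genes. The 4 with a row were Kcnq1ot1, Igf2r, Peg3 and Plagl1, while Meg3, Rian, Mirg, Grb10, Cdkn1c and Ndn were not analysed here. Their rows were read in all 10 libraries, beside those of 41 other imprinted genes out of 68 listed for comparison.

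The libraries came from RNA immunoprecipitation followed by sequencing (RIP-seq) with an anti-FLAG antibody. MEX3A is an RNA-binding protein, and the FLAG cultures came from homozygous knock-in mice (Mex3aFLAG/FLAG) in which the endogenous protein carries the tag. Wild-type (WT) cultures of the same background, with no tag, gave the nonspecific pulldown. All were neurosphere cultures of neural stem cells from the brain subependymal zone of 10-week-old mice, grown with EGF and FGF. There were 2 FLAG and 2 WT libraries from crosslinked cells, and 3 FLAG and 3 WT libraries from native immunoprecipitation without crosslinking. The sources used here do not say whether each number is a separate mouse, so the p-values measure the spread between these cultures or preparations. No input libraries were analysed here, and a value is therefore an amount in the pulldown and not an expression level. In such bulk samples, fewer cells of a type and less RNA per cell cannot be told apart, and RNA from the parental copies cannot be told apart either.

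Imprinted genes lie in clusters that share a control region with parent-specific DNA methylation, and many clusters hold a long noncoding RNA read from the opposite strand of a neighbor. Kcnq1ot1 is such an RNA, made from the paternal copy inside Kcnq1 and known for silencing genes of its cluster, and Airn plays that part at Igf2r. In neural stem cells of the adult brain, the dose of several imprinted genes is known to matter for self-renewal.

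Igf2r, Peg3 and Plagl1 code for proteins. The MEX-3 recognition element was sought in their 3' untranslated regions (UTRs), since MEX-3 proteins are known to bind mRNAs there. The element has a first and a second part of 4 bases each, with a spacer of 0 to 8 bases, and was searched on the sense strand of the longest annotated 3' UTR (GENCODE M21 models, GRCm38). For each gene, the match with the shortest and that with the longest spacer are shown, plus a pair in Peg3 whose matches overlap. They are read 5′ to 3′, with the parts of the element in capitals and 5 bases on either side.
Peg3, no spacer: tgaacAGAGTTTAcctgc
Peg3, spacer of 8 bases: gaggaAGAGagcaacaaTTTAgcata
Peg3, first of the overlapping pair: tggatTTAGtgtgcTATAgaatt
Peg3, second of the overlapping pair: gtgctATAGaaTTTAcagtt
Igf2r, spacer of 3 bases: attatAGAGttgTATAtaggt
Igf2r, spacer of 7 bases: gtctcATAGtgccaccTTTActgtg
Plagl1, spacer of 1 base: attgtGTAGcTTTAtagag
Plagl1, spacer of 8 bases: tatctGTAGatgatcaaTTTAagtca
The elements of Peg3, on the minus strand, lie at chr7:6705810-6705817, chr7:6706984-6706999, chr7:6707063-6707075 and chr7:6707056-6707065. Those of Igf2r, also on the minus strand, lie at chr17:12682591-12682601 and chr17:12682852-12682866, and those of Plagl1, on the plus strand, at chr10:13129708-13129716 and chr10:13130102-13130117.

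Peg3 held 17 matches in 3617 nt, or 4.70 per kb. A match was present in 99.7% of the 1370 3' UTRs whose length was within 20% of that of Peg3, with a median of 10 matches, and 88.5% of them held fewer than Peg3. Igf2r held 5 matches in 1307 nt (3.83 per kb), beside a median of 3 in 1761 3' UTRs of like length, 90.5% of which held a match. Plagl1 held 4 matches in 2593 nt (1.54 per kb), below the median of 7 in 1766 3' UTRs of like length, 98.4% of which held a match. Matches can overlap, so these are numbers of start positions. In Peg3, a match ended 46 nt before the end of the 3' UTR, and in Igf2r the last match ended 84 nt before it. Kcnq1ot1, which has no coding sequence, held 248 matches over its whole span (2.94 per kb), beside 2.22 per kb over the span of Igf2r, 3.35 over that of Peg3 and 2.98 over that of Plagl1. A match is a description of the letters and not a binding site, and most 3' UTRs of these lengths held one.

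The values are on the log2 scale of the deposited matrix, which the authors normalized between libraries, and a gene's value was set per kb of its span only to compare levels between genes. On that per-kb scale, the mean log2 level over the 10 libraries was 1.13 for Peg3 and 1.10 for Kcnq1ot1, higher than in 92.1% and 92.0% of all rows. Igf2r had a mean of -0.75 per kb and Plagl1 a mean of -4.38, higher than in 60.3% and 6.37% of rows. On that scale the order was Peg3 and Kcnq1ot1, Igf2r, then Plagl1. The span includes introns, and its exonic share was 50.2% for Peg3, 100% for Kcnq1ot1, 10.7% for Igf2r and 11.0% for Plagl1. Levels per kb of exon were not compared, so this order holds for the span only. In the crosslinked FLAG libraries Kcnq1ot1 (1.31 ± 0.14 per kb) was above Peg3 (1.00 ± 0.01; SD, n = 2) without overlap, a difference larger than the spread. In the native FLAG libraries Kcnq1ot1 was at 0.65 ± 0.33 per kb and Peg3 at 1.34 ± 0.78 (SD, n = 3), and the genes overlapped there and in both WT groups. The order of these neighbors was thus not the same in each group. On this span scale Plagl1 was thus the only member of the 4 near the low end of the matrix.

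What a row counts matters at these loci. Across the matrix, in 3506 of 3506 pairs in which the span of one gene lay inside that of another, the outer gene's value was at least as high as the inner gene's in all 10 libraries. This held for 1679 pairs on opposite strands and for 1827 on the same strand, while among 12069 neighboring pairs without overlap the longer gene was at least as high in all libraries in 56.0%. Values with this property are what reads counted over whole gene spans, introns included, and on either strand would give. The library kit named in the labels marks the strand, and the strand setting of the counting was not given in the sources used here. Reads of a member and of an overlapping gene on the other strand are therefore not told apart in what follows.

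Kcnq1ot1 (ENSMUSG00000101609, chr7:143212155-143296549, minus strand) lies wholly within Kcnq1, the gene of a potassium channel subunit, and covers 26.3% of its span. Kcnq1ot1 was at 92.2 to 97.9% of the linear value of Kcnq1 in the 10 libraries, and the rows were correlated at r = 0.998 over them. On the log2 scale Kcnq1 was above Kcnq1ot1 by 0.03 to 0.12. Exons of the genes share 121 nt. Since the rows may share reads, the Kcnq1 row was not taken as a separate result.

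In the crosslinked libraries Kcnq1ot1 had log2 values of 7.81 and 7.61 in FLAG and of 7.88 and 7.63 in WT. The groups overlapped, and the difference was small. FLAG over WT gave a log2 fold change of -0.05 (95% interval -0.43 to 0.34), with an adjusted p of 0.96 in limma.

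In the native libraries Kcnq1ot1 had log2 values of 6.81, 7.42 and 6.93 in FLAG and of 7.53, 7.59 and 7.83 in WT. All 3 FLAG libraries lay below all WT libraries, and FLAG replicate 2 lay close to the lowest WT library. The log2 fold change was -0.60 ± 0.20 (SE), with an unadjusted p of 0.015 and an adjusted p of 0.25 in limma, so it did not pass. The interval ran from -1.05 to -0.15. Without FLAG native replicate 2 the log2 fold change was -0.78, with an adjusted p of 0.013 in limma, and Kcnq1ot1 was then called lower in FLAG.

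Igf2r (ENSMUSG00000023830, chr17:12682406-12769664, minus strand) codes for the receptor that takes up insulin-like growth factor 2 and carries it to the lysosome. Airn, its noncoding antisense neighbor, shares 28.354 kb with it, which is 32.5% of the span of Igf2r and 23.9% of that of Airn, without any shared exon. Igf2r had crosslinked log2 values of 5.49 and 5.73 in FLAG and of 5.77 and 5.63 in WT, and the groups overlapped. Its log2 fold change was -0.09 (95% interval -0.43 to 0.26), with an adjusted p of 0.89 in limma.

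In the native libraries Igf2r had log2 values of 5.18, 5.92 and 5.25 in FLAG and of 5.91, 6.04 and 6.06 in WT. FLAG replicates 1 and 3 were below all WT libraries, while FLAG replicate 2 fell among them. The log2 fold change was -0.55 ± 0.22 (SE), with an unadjusted p of 0.036 and an adjusted p of 0.28 in limma, and it did not pass. Without FLAG native replicate 2 it was -0.79, with an adjusted p of 0.013 in limma, and Igf2r was then called lower.

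Airn had native log2 values of 5.76, 6.21 and 5.63 in FLAG and of 6.53, 6.69 and 6.79 in WT, with every FLAG library below every WT library. Its log2 fold change was -0.81 ± 0.20 (SE) in the native libraries (adjusted p = 0.21 in limma) and -0.60 over all libraries (adjusted p = 0.098 in limma), and neither passed. Airn was above Igf2r in all libraries, by 0.30 to 0.95 on the log2 scale, and the rows were correlated at r = 0.813 over the 10 libraries. That correlation may include reads of the shared stretch.

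**Figure D1:**
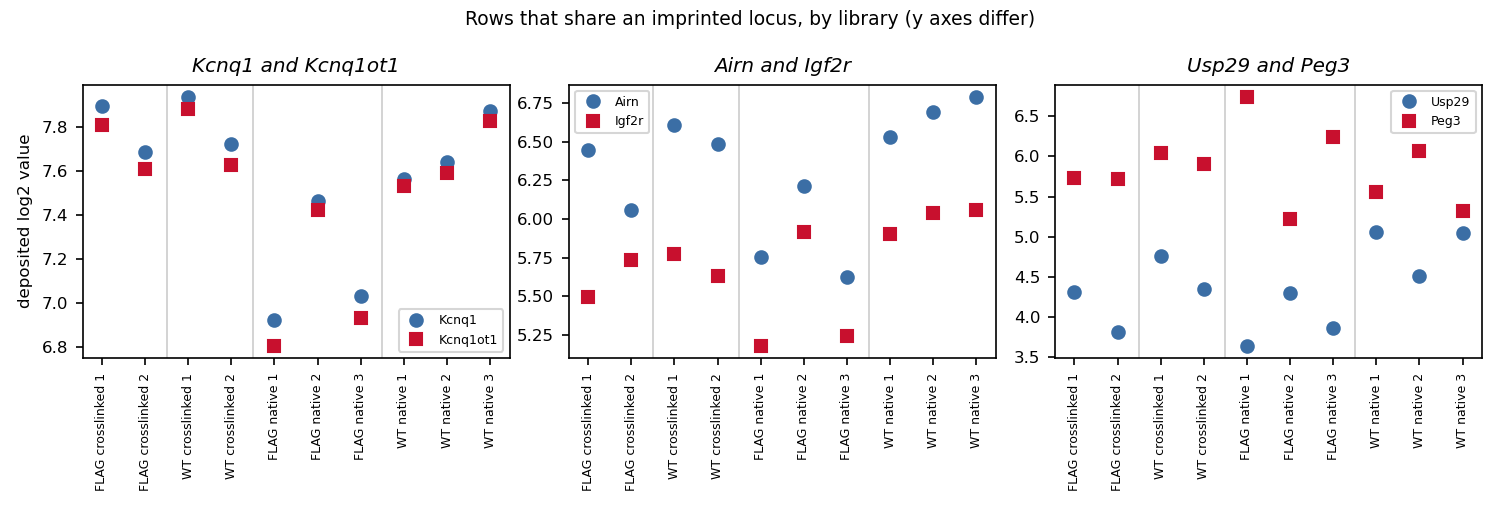
Deposited log2 values (y axis, a different range in each panel) of rows that share an imprinted locus in each of the 10 libraries (x axis, grey lines between groups), with the member in red squares and its neighbor in blue circles. Kcnq1ot1 followed Kcnq1 to within 0.03 to 0.12, Airn was above Igf2r throughout, and Peg3 and Usp29 lay 0.28 to 3.10 apart.

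Peg3 (ENSMUSG00000002265, chr7:6703892-6730431, minus strand) codes for a zinc finger protein and is expressed from the paternal copy. Its span overlaps no other row of the matrix. Peg3 had crosslinked log2 values of 5.73 and 5.72 in FLAG and of 6.04 and 5.90 in WT. Both FLAG libraries were below both WT libraries. The log2 fold change was -0.24 (95% interval -0.49 to 0.00), with an adjusted p of 0.65 in limma.

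In the native libraries Peg3 had log2 values of 6.74, 5.22 and 6.25 in FLAG and of 5.56, 6.07 and 5.32 in WT. FLAG replicates 1 and 3 were above all WT libraries, but FLAG replicate 2 was the lowest of the 6. The log2 fold change was 0.42 ± 0.37 (SE), with an adjusted p of 0.54 in limma. Without FLAG native replicate 2 it was 0.84, with an adjusted p of 0.045 in limma, and Peg3 was then called higher, while without FLAG native replicate 1 it was 0.0802 (adjusted p = 0.93) and without replicate 3 it was 0.33. The signs in crosslinked and native libraries were thus opposite, with a difference between the protocols of 0.66 ± 0.54 (SE) that did not pass (adjusted p = 0.97 in limma).

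The nearest imprinted rows to Peg3 were Usp29, the gene of a ubiquitin protease that shares the promoter region of Peg3 in the opposite direction, and Zim1, the gene of another zinc finger protein. Usp29 had native log2 values of 3.64, 4.30 and 3.86 in FLAG and of 5.06, 4.52 and 5.04 in WT, with no overlap of the groups. Its log2 fold change was -0.94 ± 0.25 (SE) in the native libraries (adjusted p = 0.23 in limma) and -0.76 over all libraries (adjusted p = 0.095 in limma). Peg3 and Usp29 were correlated at r = -0.584 over the 10 libraries. Zim1 had a native log2 fold change of 0.06 (adjusted p = 0.93 in limma).

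Plagl1 (ENSMUSG00000019817, chr10:13060504-13131694, plus strand) codes for a zinc finger transcription factor that is known to act on other imprinted genes and to restrain cell division. Its span overlaps no other row. Plagl1 had crosslinked log2 values of 1.26 and 2.72 in FLAG and of 2.099 and 1.89 in WT. In the native set it had log2 values of 0.40, 2.01 and 1.89 in FLAG and of 1.96, 1.54 and 2.01 in WT. The FLAG libraries lay on either side of the WT libraries in the crosslinked set and spread more widely than them in the native set.

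The log2 fold change of Plagl1 was -0.00 in the crosslinked libraries (95% interval -1.47 to 1.46) and -0.41 in the native libraries (95% interval -1.44 to 0.63), with adjusted p of 0.99 and 0.62 in limma. These intervals were the widest of the 4 members, and changes of more than 2-fold in either direction lay within the crosslinked one. Without FLAG native replicate 1, the lowest of them, the native log2 fold change turned to 0.11, and without replicate 2 or 3 it was -0.69 or -0.64, with adjusted p of 0.89, 0.31 and 0.64 in limma. In the crosslinked libraries it ran from -0.73 to 0.72 with a single library left out, so the direction for Plagl1 rested on single libraries in both protocols.

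**Figure D2:**
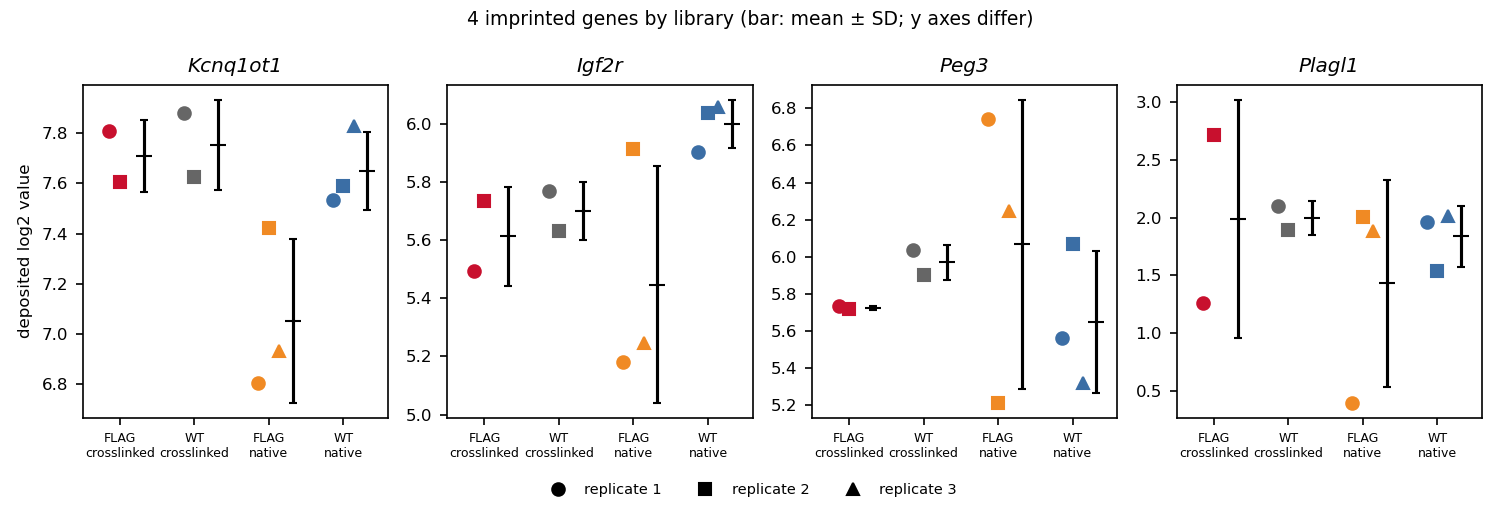
Deposited log2 values (y axis, a different range in each panel) of the 4 members in each library by group (x axis), with a symbol for each replicate number and the mean ± SD of each group in black. In the native FLAG group, replicate 2 lies toward or among the WT libraries for Kcnq1ot1 and Igf2r and is the lowest for Peg3, and Plagl1 ranges from 0.40 to 2.72 over all libraries.

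No member was called in a main comparison, where a call needs an adjusted p under 0.05 in limma and a size of the log2 fold change above 0.58. In the crosslinked libraries 0 of 4 members were called, of 0 genes in all (0%), and none had an unadjusted p under 0.05. With 2 libraries per group this comparison called no gene of the matrix, so the absence of a call there says nothing about the members. In the native libraries 0 of 4 were called beside 0.107% of all genes, with an unadjusted p under 0.05 for Kcnq1ot1 and Igf2r. Over all libraries 0 of 4 were called beside 0.497%, again with Kcnq1ot1 (log2 fold change -0.38) and Igf2r (-0.37) at unadjusted p of 0.034 and 0.043 in limma. That fit takes the libraries as independent, but crosslinked and native libraries of the same genotype and number deviated together. With genotype and number as a random block, Kcnq1ot1 was at -0.41 and Igf2r at -0.39, with unadjusted p of 0.053 and 0.051 and adjusted p of 0.30 and 0.29 in limma, and 0 of 4 members were called beside 0.0943% of genes. With array weights the log2 fold change of Igf2r over all libraries was -0.0747 (adjusted p = 0.42 in limma). That of Kcnq1ot1 was -0.25 with an adjusted p of 0.015, beside 34.6% of all genes with an adjusted p under 0.05 in that fit, and it was not called because of its size, beside 13% of genes called. The test of a difference between protocols called 0 of 4 members, of 0% of genes, and no member had an unadjusted p under 0.05.

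As for groups that did not overlap, Kcnq1ot1 was the single member with all native FLAG libraries below WT, a pattern of 10.8% of all genes, and no member had all of them above, a pattern of 8.62%. In the crosslinked libraries Peg3 was the single member with both FLAG libraries below WT, which 19.9% of all genes showed, and none lay above, which 19.1% showed. The members' share was thus not read as a result about them.

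The calls in the native libraries turned on FLAG native replicate 2. Without it, Peg3 was called higher and Kcnq1ot1 and Igf2r lower. That made 1 and 2 of 4 members, beside 9.12% of all genes called higher and 10.8% called lower. The FLAG libraries left were replicates 1 and 3, with 329 and 178 genes tied at the library's lowest value, beside 1 in replicate 2. With array weights in place of leaving it out, 0 members were called higher and 2 lower, beside 10.4% and 12.1% of all genes. Over all libraries without it, 0 of 4 members were called, beside 4.42% of genes. Without FLAG native replicate 1 or replicate 3 instead, no member was called, and none had an unadjusted p under 0.05 with a log2 fold change past 0.58.

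The libraries differed in ways that ran beside the groups. FLAG native replicates 1 and 3 had 329 and 178 genes tied at the library's lowest value, while the other libraries had at most 3. FLAG native replicate 2 had the lowest array weight, 0.19 beside 0.33 to 2.80 in the rest. Xist, the RNA of the inactive X chromosome, was at 8.56 to 10.86 in the FLAG libraries and at -0.71 to 10.71 in WT. The WT cultures thus differed among themselves in this gene. In the native libraries it was at 8.56 to 9.52 in FLAG and at 0.68 to 7.63 in WT, without overlap, while the crosslinked groups overlapped. Of the marker lists, 9 of 10 genes of neural stem and progenitor cells were measured, with summed linear values of 2021 to 2919. Neuron markers (3 of 5 measured) summed to 11.7 to 21.2 in FLAG and to 28.7 to 39.7 in WT, without overlap. This separation was that of Rbfox3, since the summed Snap25 and Syt1 overlapped, at 3.90 to 7.95 in FLAG and 5.72 to 12.2 in WT. Endothelial markers (3 of 5 measured) summed to 4.22 to 5.44 in FLAG and to 6.02 to 9.23 in WT, without overlap. They were at low levels, with mean log2 values of -0.61 to 2.05. Pecam1 was lower in FLAG without overlap in both protocols, while Kdr overlapped in the native libraries and Tek in the crosslinked ones. The summed markers of microglia (3 of 5) lay between 28.8 and 36.6, those of ependymal cells (2 of 5) between 1.60 and 9.17 and those of oligodendrocytes (1 of 5) between 1.67 and 3.93. The part of any of these in the members' values was not tested.

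Crosslinking itself was compared with native immunoprecipitation over all libraries, with genotype as a covariate, and the fold changes are crosslinked over native. Kcnq1ot1 had a log2 fold change of 0.38 ± 0.16 (SE), which did not pass (unadjusted p = 0.036, adjusted p = 0.21 in limma). In FLAG its crosslinked libraries (7.61 to 7.81) were above the native ones (6.81 to 7.42), whereas in WT the protocols overlapped. Plagl1 had a log2 fold change of 0.36, Igf2r of -0.07 and Peg3 of -0.01, with adjusted p of 0.64, 0.86 and 0.99 in limma. None of the 4 was called, beside 4.11% of all genes, or 2.8% with genotype and replicate number as a block.

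Among the 41 other imprinted genes, limma called none in any main FLAG to WT comparison. An unadjusted p under 0.05 was seen for 4 with crosslinking, for 14 in native conditions and for 16 over all libraries. Of all genes, 7.7%, 16.7% and 21.1% had such a p in these comparisons, and some of the imprinted rows share reads with each other. With the random block the values over all libraries were 14 imprinted genes and 17.1% of all genes. Their native log2 fold changes had a median of 0.06, beside -0.04 over all genes, and ran from -0.94 (Usp29) to 2.68 (Mkrn3), with 9 above 0.58 and 6 below -0.58. Over all libraries the largest increases were those of Mkrn3, the gene of a RING finger protein (1.74, adjusted p = 0.16 in limma), and Mest, the gene of a hydrolase-like protein expressed from the paternal copy (1.27, adjusted p = 0.087). The largest decreases were those of Htr2a, the gene of a serotonin receptor (-0.78, adjusted p = 0.11 in limma), and Usp29. The native value of Mkrn3 rested on low levels, with log2 values of 1.62, -0.48 and 1.97 in FLAG and of -2.19, -1.26 and -1.46 in WT.

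Mest had native log2 values of 8.10, 6.22 and 7.54 in FLAG and of 5.90, 6.27 and 5.59 in WT. With crosslinking it had 6.69 and 6.55 in FLAG and 5.39 and 5.62 in WT. FLAG replicate 2 was again the library that overlapped with WT in the native set. The crosslinked log2 fold change of Mest, 1.12, had an adjusted p of 0.32 in limma. Copg2, a coat protein gene on the opposite strand, shares 912 nt of exons with Mest, so these rows may share reads.

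Without FLAG native replicate 2, 10 of the 41 were called higher and 7 lower in the native libraries, beside the background of 9.12% and 10.8% given above. Those called higher included Mest (1.90), Peg10 (1.18) and Mkrn3 (3.43), and those called lower included Usp29 (-1.12). The 7 also include Kcnq1 and Airn, whose rows may share reads with Kcnq1ot1 and Igf2r, so these are not calls apart from those of the members. Over all libraries without that replicate, 5 of the 41 were called higher and 3 lower, beside 4.42% of all genes called. Array weights called 8 higher and 6 lower in the native libraries, beside 10.4% and 12.1% of all genes. Over all libraries they called 2 higher and 2 lower, beside 13% of genes called. In the comparison of protocols, Peg10, a gene derived from a retrotransposon, was called lower in crosslinked than in native libraries. Its log2 fold change was -1.08 (adjusted p = 0.044 in limma), and it did not pass with the block (adjusted p = 0.11). Nor was it called with array weights, no trend or a minimum mean log2 value of 2. With a single library left out, 0 to 4 of the 41 were called lower there, beside 212 to 768 of 15899 genes.

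**Figure D3:**
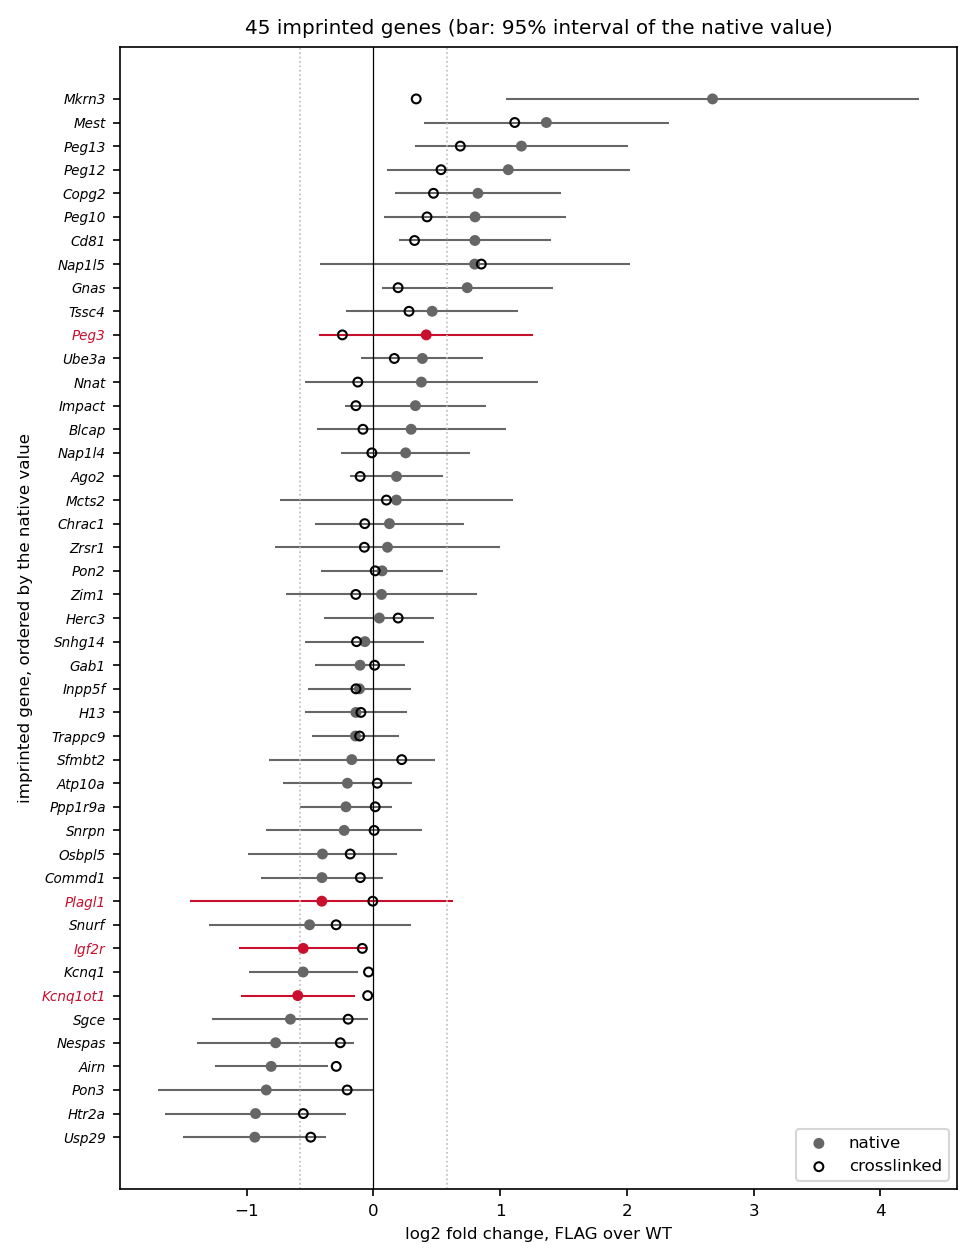
Log2 fold changes of FLAG over WT (x axis) of the 45 imprinted genes (y axis, ordered by the native value), with native values as filled points with 95% intervals, crosslinked values as open circles and dotted lines at -0.58 and 0.58. The 4 members, in red, lie between -0.60 (Kcnq1ot1) and 0.42 (Peg3) in the native libraries, within the range of the other imprinted genes.

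The exonic share of a gene's span ran beside the native fold changes. It was 50.2% for Peg3, 11.0% for Plagl1 and 10.7% for Igf2r, while Kcnq1ot1 is annotated as unspliced. Over the 45 imprinted genes the exonic share and the native log2 fold change were correlated across genes at r = 0.519 (Spearman's rho = 0.554). Over 15864 genes of the matrix they were correlated at r = 0.150 (rho = 0.251). With the crosslinked log2 fold change, r was 0.413 (rho = 0.329) over the imprinted genes and 0.0107 (rho = 0.0516) over the matrix. Genes are not independent replicates, they share the libraries, and some of these rows share reads. Kcnq1ot1 lay apart from the other genes with a share of 100%, all of which had native values above 0. Once the trend along exonic share had been taken out of each library, the native log2 fold change was -0.42 for Kcnq1ot1, -0.45 for Igf2r, 0.15 for Peg3 and -0.31 for Plagl1, and none passed.

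**Figure D4:**
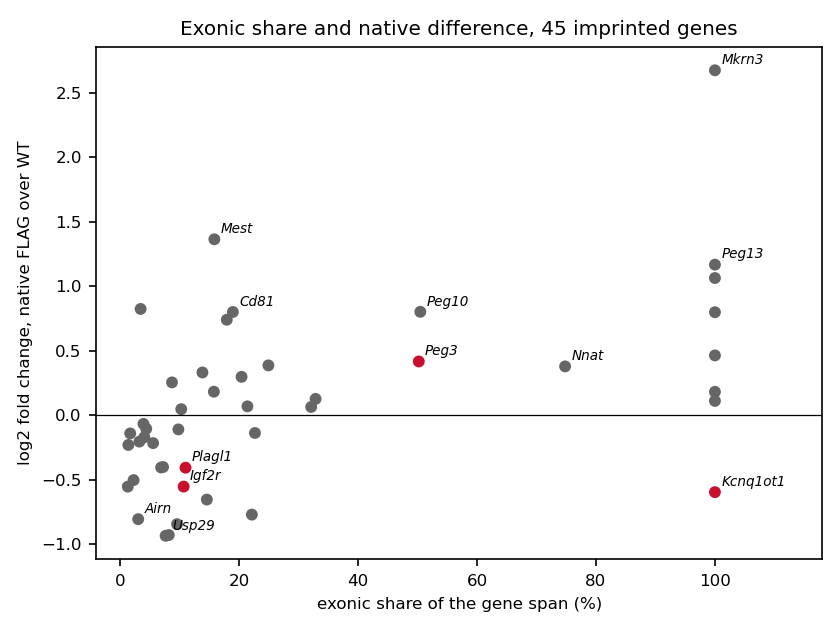
Native log2 fold change of FLAG over WT (y axis) against the exonic share of the gene span in percent (x axis) for the 45 imprinted genes, with the 4 members in red. Genes with a low share lie on both sides of 0 and Peg3, at 50.2%, above it, while Kcnq1ot1 at 100% lies at -0.60, below the other genes with that share.

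The members varied together in part. Over the 10 libraries Kcnq1ot1 and Igf2r were correlated at r = 0.704, and Peg3 was negatively correlated with Kcnq1ot1 (r = -0.627), with Igf2r (r = -0.736) and with Plagl1 (r = -0.626). Plagl1 was correlated at 0.505 with Kcnq1ot1 and at 0.533 with Igf2r. These values share the libraries and their normalization and include the difference between groups. By a rule chosen after values were seen, the rows most like each member among those whose span does not overlap it, which leaves out Kcnq1 for Kcnq1ot1, were Stau2 for Kcnq1ot1 (r = 0.988), Gm43805 for Igf2r (r = 0.969), Wbp11 for Peg3 (r = 0.971) and Plod2 for Plagl1 (r = 0.961).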

How the data were processed

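According to the methods, the authors trimmed the reads with Cutadapt and Trimmomatic, mapped them to GRCm38 with HISAT2, counted them per gene with featureCounts on GENCODE M16 and normalized with DESeq2. The labels also name limma. The deposited matrix holds log2 values with nearly the same distribution in each library, as quantile normalization would give. Depth per library is unknown, so no counting interval is given.

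The log2 values were fitted as deposited with limma 3.58.1 in R 4.3.3 (lmFit, eBayes with a trend), two-sided, with Benjamini-Hochberg adjustment over all 15899 genes. The steps were tested on artificial data with known changes. Spans and positions come from the matrix (GRCm38), and exons and 3' UTRs from GENCODE M21, which held 15864 of the genes. Sequences come from GRCm38, and the motif is the form in the methods. Python 3.11.15, numpy 2.4.6, pandas 2.3.3 and matplotlib 3.10.9 were used.

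Members and lists were chosen with earlier results of these data known. The genes named are the members, the other imprinted genes called, in the locus of one of the 10 listed genes (that of Ndn for Snrpn, Snhg14 and Atp10a) or with the 2 largest changes each way over all libraries. A further part of the rule, the genes most like Meg3, Rian and Mirg, could not be applied, and Stau2, Gm43805, Wbp11 and Plod2 replace it. Copg2 was named after its values were seen.

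The alternatives were a pseudocount of 1, a minimum mean log2 value of 2, quantile normalization, median centring, array weights, no trend, robust moderation, 1 fit of 4 groups, the replicate block and each library left out. The removal of the exonic trend, in 20 bins, the crossed block and the motif search over whole spans were added after seeing the data. Crosslinked and native libraries of the same genotype and number deviated together from their group means (r = 0.154 to 0.388 in 4 pairs). With 2 libraries in a crosslinked group, their deviations are equal and opposite, so the 4 pairs are not independent. The number may thus pair them, which is not settled. A random block of genotype and number (duplicateCorrelation, consensus correlation 0.327 over all libraries) was added after seeing the data. FLAG and WT libraries of the same number did not deviate together (r = -0.430 to -0.0336).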

Additional observations from a re-analysis of the deposited data

How the results depend on the processing

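No member was called over all libraries or between protocols under any alternative run. The crosslinked comparison and the difference between protocols called at most 4 and 1 of all genes under any alternative, so the absence of members' calls there says nothing about stability. In the native libraries array weights called 0 members higher and 2 lower (beside 10.4% and 12.1% of all genes), and leaving out each library in turn called 0 to 1 higher and 0 to 2 lower, in both cases against 0 without. Igf2r and Kcnq1ot1 were lower in FLAG in the native libraries under all settings run (log2 fold changes of -0.79 to -0.42 and of -0.78 to -0.42). In that comparison Peg3 ran from 0.0802 (without FLAG native replicate 1) to 0.84, and over all libraries Igf2r ran from -0.47 to -0.0747 (array weights) and Kcnq1ot1 from -0.47 to -0.21 (exonic trend removed). With array weights over all libraries Peg3 turned to -0.28, Plagl1 to 0.40 and Zim1 to 0.0742, and Peg3 between protocols to 0.40. With the exonic trend removed, signs turned for Plagl1 (0.0253) and Kcnq1ot1 (0.10) in the crosslinked libraries, for Zim1 (-0.0798), Tssc4 (-0.0467), Snrpn (0.11), Snhg14 (0.23) and Atp10a (0.14) in the native libraries, and for Peg3 (-0.0162), Snrpn (0.0943), Snhg14 (0.12) and Atp10a (0.12) over all libraries. A pseudocount of 1 gave 0.0252 for Plagl1 in the crosslinked libraries. None of these passed, and the cause was not tested. With the other form of the motif Igf2r held 3 matches, Plagl1 5 and Peg3 12, and 70.5% of 3' UTRs of like length held fewer than Peg3.

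With a single library left out, signs also turned for Igf2r (-0.21 to 0.0336), Kcnq1ot1 (-0.17 to 0.0820) and Plagl1 (-0.73 to 0.72) in the crosslinked libraries, and for Plagl1 (-0.69 to 0.11), Zim1 (-0.19 to 0.38), Atp10a (-0.37 to 0.00595), Snhg14 (-0.19 to 0.0867) and Snrpn (-0.37 to 0.0241) in the native libraries. Over all libraries they turned for Peg3 (-0.0675 to 0.35), Plagl1 (-0.51 to 0.0568), Zim1 (-0.16 to 0.15), Atp10a (-0.19 to 0.0172) and Snrpn (-0.29 to 0.0158), between protocols for Igf2r (-0.17 to 0.0181) and Peg3 (-0.17 to 0.17), and for the difference of Plagl1 (-1.13 to 0.33).

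With the replicate number as a block, no FLAG to WT call of a member changed (0 called), and Kcnq1ot1 had a native adjusted p of 0.43 in limma. With genotype and number as a random block, 15 genes in place of 79 were called over all libraries, and no member. In the crosslinked libraries the block with crossed numbers also called 0 members and 0 genes. Depth and counting error are unknown.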
